A study of Mus musculus with 29 samples.

Results

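Mg4 is 1 of 8 microglial subtypes in the cell annotation that the authors deposited with their brain libraries. Its members are the cells annotated as microglia at the broad level and as Mg4 at the fine level. There were 1822 of them among 24707 microglia, 55268 brain cells and 106977 cells in all 29 libraries of the series. The cells were profiled by Drop-seq, a droplet method that counts transcripts of single cells, after transient occlusion of the middle cerebral artery or sham surgery in C57BL/6J mice.

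Young mice were males of 8 to 10 weeks, with 4 libraries each of sham at day 2, stroke at day 2 and stroke at day 14. Aged mice were 17 to 20 months old, with 2 sham libraries at day 2 (1 male, 1 female), 3 stroke libraries at day 2 (1 male, 2 female) and 1 female stroke library at day 14. There was no sham library at day 14, so a change between days cannot be told apart from time after surgery. Each library pooled 4 to 5 hemispheres, digested with papain in the presence of the transcription inhibitor actinomycin D and blockers of P2X7 and NMDA receptors. The suspension was then sorted for microglia, CD45-high leukocytes and endothelial cells, so shares of cells also depend on the sort gates. The labels do not say how the pools relate between libraries, so p-values measure the spread between these pools.

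Microglia are the resident macrophages of the brain. At rest they express receptors such as P2ry12, which senses extracellular nucleotides and guides process movement, and after injury they lower these genes and take up debris and lipid. Spp1 encodes osteopontin, a secreted phosphoprotein that binds integrins and Cd44, and it is a known gene of activated microglia and macrophages.

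Among the genes higher in Mg4 at day 2 than in sham, 3 were chosen to show promoters. These promoters are those of Spp1, Lgals3 (galectin-3) and Plin2 (the coat protein of lipid droplets). They run from 250 bases before to 50 bases after the annotated start in RefSeq, build GRCm38.p6, at chr5:104434861-104435160 on the plus strand, chr14:47373610-47373909 on the plus strand and chr4:86670010-86670309 on the minus strand. Of 12 genes looked up, 7 were in the promoter table. Capitals mark matches to a motif.
Spp1: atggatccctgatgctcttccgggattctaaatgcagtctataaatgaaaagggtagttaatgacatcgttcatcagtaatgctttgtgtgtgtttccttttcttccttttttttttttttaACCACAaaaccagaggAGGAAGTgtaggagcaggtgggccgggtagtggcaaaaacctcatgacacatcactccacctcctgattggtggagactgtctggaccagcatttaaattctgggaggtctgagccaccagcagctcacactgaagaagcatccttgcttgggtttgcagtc
Lgals3: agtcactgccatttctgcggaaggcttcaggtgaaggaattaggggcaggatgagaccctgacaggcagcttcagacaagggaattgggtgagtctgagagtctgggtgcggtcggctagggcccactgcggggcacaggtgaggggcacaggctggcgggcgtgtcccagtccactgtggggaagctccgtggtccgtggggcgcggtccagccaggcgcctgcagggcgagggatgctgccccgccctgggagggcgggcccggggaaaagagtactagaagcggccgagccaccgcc
Plin2: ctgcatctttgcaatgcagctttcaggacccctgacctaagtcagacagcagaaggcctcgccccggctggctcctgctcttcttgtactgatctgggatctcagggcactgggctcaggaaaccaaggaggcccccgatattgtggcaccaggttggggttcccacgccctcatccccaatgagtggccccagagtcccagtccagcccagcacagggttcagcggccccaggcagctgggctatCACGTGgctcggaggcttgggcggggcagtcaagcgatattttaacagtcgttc
The motifs, searched on both strands, were those of AP-1 (TGANTCA), the antioxidant response element (TGACNNNGC), an E-box of the CLEAR type (CACGTG), PU.1 (AGGAAGT) and RUNX (ACCACA). The last pair was added after the first motifs gave no match in Spp1. The Spp1 promoter held the RUNX letters at -128 and the PU.1 letters at -112 from the start site. These letters occur in 16.8% and 9.35% of 32851 promoters of the same length. The Plin2 promoter held CACGTG at -4, present in 7.15% of promoters, and the Lgals3 window held none of the 5 motifs. A window at another annotated Spp1 start held none either. The promoters of Cd63, Capg, Lilr4b and Adam8, which are not shown, also held none of the 5 motifs. AP-1 letters were in 7.81% and antioxidant response letters in 12.4% of promoters. A match describes the letters only.

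One library goes against its label and bears on the results below. In the library labelled young stroke day 2 replicate 3, 58 cells were annotated as microglia, 1.68% of its cells, and 56 of them were Mg4. The 9 microglial markers summed to 886 CPM (the standard scaling of a count by the summed counts of the same cells in a library) in these 56 cells. They summed to 13390 to 13860 CPM in the Mg4 cells of the other 3 young day 2 libraries. Its monocyte-derived markers, a list of 10, summed to 1162 CPM, against 33.3 to 562 in those 3 libraries and 6972 to 11760 in the cells annotated as monocyte-derived. P2ry12 stood at 3.53 CPM there and at 494 to 569 CPM in the other 3. In 53 of the 56 cells more genes were detected than counts, and 92.2% of the nonzero values of its Mg4 cells were below 0.5 of a count. So the annotated Mg4 cells of that library do not carry a microglial marker profile, and the main shares, counts of calls and named changes are also given without it. Young sham replicate 4 also had more genes than counts in most Mg4 cells, in 19 of 21, with 51.33% of values below 0.5, while its microglial markers summed to at least 16040 CPM.

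Elsewhere the name held. Microglial markers were the highest of the marker lists in the Mg4 cells of the other libraries, at 16040 to 18980 CPM in young sham and 8107 to 11880 CPM in aged stroke day 2. The Mg4 cells of the aged male stroke library also held granulocyte markers at 3153 CPM, with 8 of 8 detected. Without that library the comparison of ages below also called 0 genes, of 1025 tested, and the aged counts within libraries were 535 higher and 2065 lower, from 2 libraries. Genes of red blood cells were at 0 in Mg4 at day 2 in both ages. Pairs of libraries shared at most 3 cell barcodes.

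**Figure D1:**
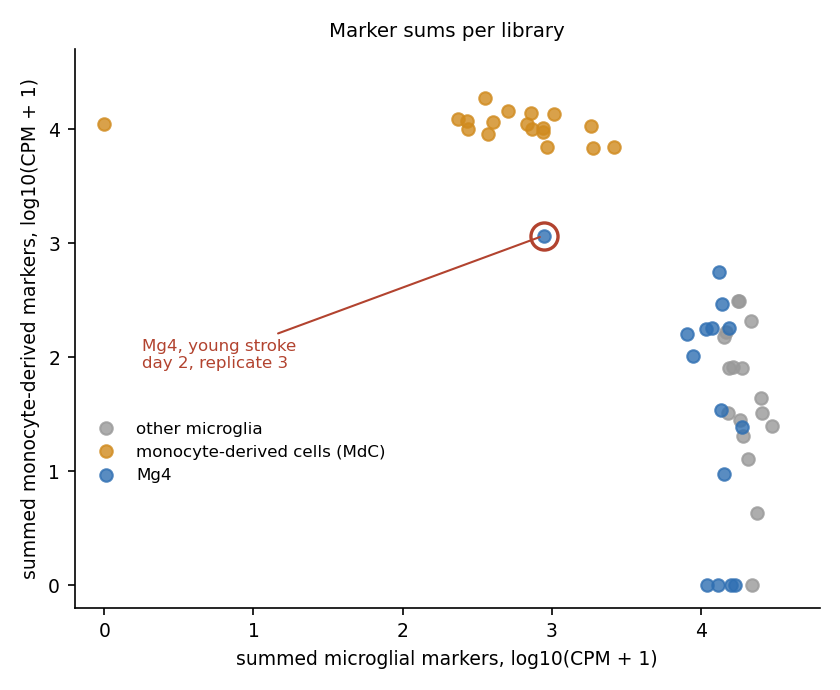
Summed level of 9 microglial markers (horizontal) and 10 monocyte-derived markers (vertical), each as log10(CPM + 1). A point is 1 library's Mg4 cells (blue, at least 5 cells), other microglia (grey) or monocyte-derived cells (orange); the circled Mg4 point of young stroke day 2 replicate 3, at 886 and 1162 CPM, lies apart from the other Mg4 points.

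Mg4 was rare in sham brains and was a large part of the microglia at day 2 in both ages. In young sham libraries it was 1.59%, 1.97%, 0% and 0.677% of microglia (mean 1.06 ± 0.892, SD, n = 4). The empty library held 2093 microglia, and a count of 0 there allows a share of up to 0.143%. In young stroke day 2 libraries it was 39.97%, 33.91%, 96.55% and 37.46% (mean 51.97 ± 29.8, SD, n = 4), and without replicate 3 the mean was 37.1%. The exact 95% binomial intervals of the 3 others ran from 30.4% to 44.0%, and such intervals cover counting error only. All 4 libraries lay above every sham library. At day 14 the share was 1.66%, 2.09%, 1.32% and 0.305% (mean 1.34 ± 0.761, SD, n = 4), which overlapped the sham range.

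Aged stroke day 2 libraries held 41.72% in the male library and 46.76% and 11.76% in the female libraries (mean 33.4 ± 18.9, SD, n = 3). The last value came from 20 Mg4 cells and lies below every young day 2 library. Aged sham libraries held 0% and 0.126%, where the 0 came from 329 microglia and allows up to 0.912%. The aged day 14 library held 0.333%, or 6 cells. These shares describe cluster sizes and were not tested, because the genes that define the clusters also differ between the groups.

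The other subtypes shifted in the same libraries. At young day 2 the mean shares were 26.4% for Mg5, 11.04% for Mg1, 5.18% for Mg2 and 3.63% for Mg3. Single libraries moved these means. Mg1 ran from 0 to 27.42%, with a mean of 5.58% without replicate 2, and Mg2 from 1.30 to 14.12%, with a mean of 2.19% without replicate 4. Without replicate 3 the means were 34.6% for Mg5, 14.7% for Mg1, 6.33% for Mg2 and 4.84% for Mg3. In sham, Mg1 took 53.0% and Mg2 37.85% of microglia. Of all Mg4 cells, 56.75% came from young day 2, and of all Mg5 cells 64.15%. Microglia themselves were 68.7 to 81.5% of the cells of a young sham library and on average 17.35% at young day 2. As a share of all cells, Mg4 was therefore 0.757% in young sham, 6.67% in young day 2, 0.438% in young day 14 and 10.3% in aged day 2 libraries on average. Without young day 2 replicate 3, microglia were 22.6% and Mg4 8.36% of all cells there. Fewer microglia and more sorted leukocytes cannot be told apart in such a share.

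**Figure D2:**
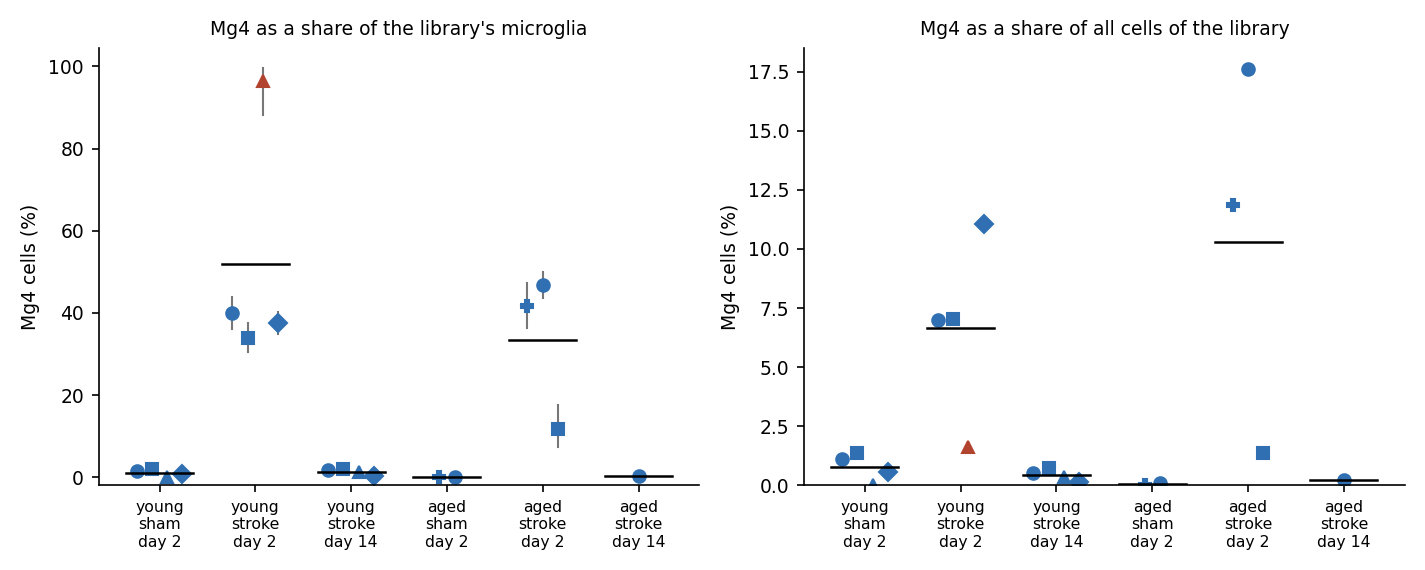
Mg4 cells as a percentage of the microglia (left) and of all cells (right) of each library, by age, surgery and day. Points are libraries (circle, square, triangle and diamond for replicates 1 to 4, a plus for aged males; in aged groups circle and square are females 1 and 2), black bars are group means, grey lines on the left are exact 95% intervals, and red marks young stroke day 2 replicate 3, at 96.55% of microglia.

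Spp1 was present in Mg4 after stroke and nearly absent from the Mg4 cells of sham brains, so the annotation groups cells that differ in their marker. The levels below are CPM of the counts summed over the named cells of a library. Spp1 was at 38.9, 12.1 and 80.3 CPM in the 3 young sham libraries with Mg4 cells. It was at 21670, 17910, 13610 and 39600 CPM in young stroke day 2 replicates 1 to 4. Every day 2 library lay above every sham library, with no value between the ranges.

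At day 14 the Mg4 cells still held Spp1, at 5643, 2700, 36330 and 8078 CPM in replicates 1 to 4, from 8 to 20 cells each. Replicate 3 was high and the other 3 lay below every day 2 library. In aged stroke day 2 libraries Spp1 was at 30620 CPM (male), 43520 CPM and 1369 CPM (females 1 and 2). The second female library, with 20 Mg4 cells, was thus far below the others. The 6 Mg4 cells of the aged day 14 library held no Spp1 count, which at 3 counts allows up to 677 CPM.

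Spp1 was not limited to Mg4. At young day 2 it stood at 3677, 2892 and 4034 CPM in the other microglia of replicates 1, 2 and 4. Mg1, a subtype common in sham, held 314 to 497 CPM there, Mg3 2174 to 10100 CPM and Mg5 3968 to 4230 CPM. Monocyte-derived cells held 4198 to 13350 CPM over the 4 libraries. In each of replicates 1, 2 and 4, Mg4 had the highest level of these sets. By day 14 Mg3 held 4082 to 13970 CPM and monocyte-derived cells 10430 to 23930 CPM, which overlap the Mg4 range. Monocyte-derived cells then lay above Mg4 in replicates 1, 2 and 4. In replicate 3 Mg4 stayed above both, at 36330 CPM from 9 cells.

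**Figure D3:**
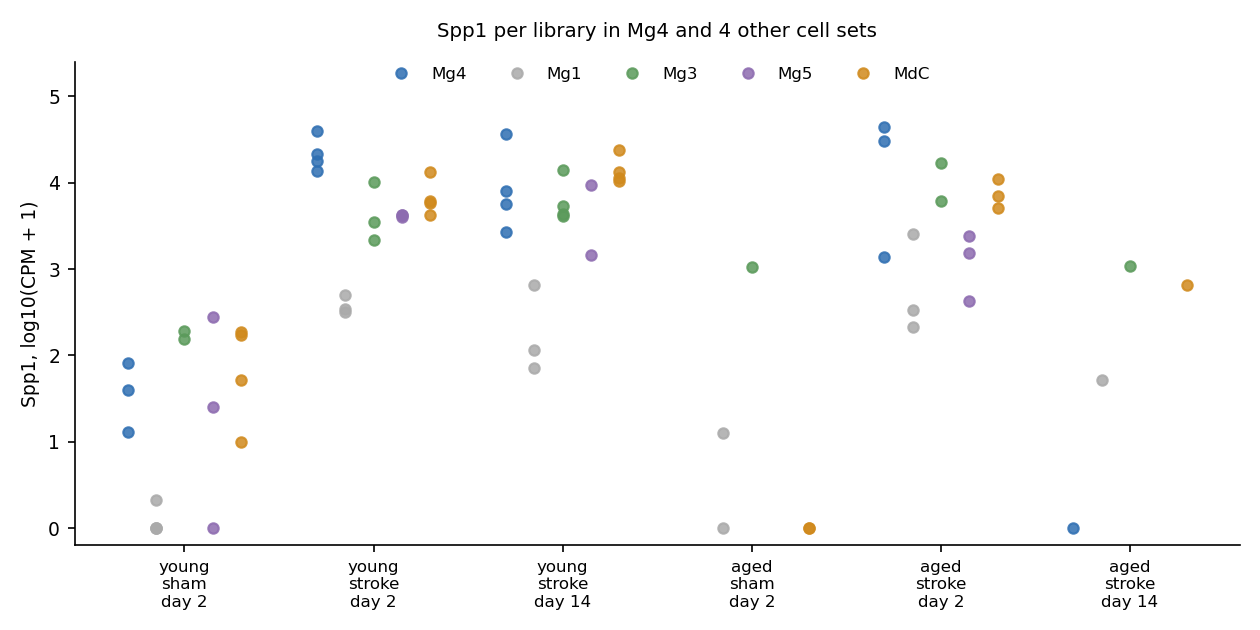
Spp1 level per library as log10(CPM + 1), by age, surgery and day, in Mg4 (blue, libraries with at least 5 cells) and in Mg1, Mg3, Mg5 and monocyte-derived cells (MdC; at least 20 cells). Young day 2 Mg4 points lie between 13610 and 39600 CPM and sham Mg4 points between 12.1 and 80.3 CPM.

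What else marked Mg4 at young day 2 was read within libraries, as the ratio of Mg4 to the other microglia of the same library in replicates 1, 2 and 4 (replicate 3 held only 2 other microglia). Because the authors clustered these same cells on their genes, the ratios describe the cluster and carry no test. A gene was counted when its mean log2 ratio, with 5 CPM added to both levels, was at least 1 and had the same sign in all 3 libraries. Of 16857 genes, 119 were higher (0.706%) and 449 lower (2.66%).

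The largest ratio among the named genes was that of Mmp12, macrophage elastase. It was at 228, 150 and 71.1 CPM in Mg4 and at 2.61, 2.56 and 10.6 CPM in the other microglia of replicates 1, 2 and 4, a mean log2 ratio of 3.86 ± 1.40 (SD, n = 3). Adam8, a membrane metalloprotease, was at 146, 116 and 130 CPM against 17.8, 10.97 and 12.6 CPM (2.86 ± 0.12). Both were higher in Mg4 in all 3 libraries. In monocyte-derived cells of young day 2, Mmp12 was at 1.78 to 11.8 CPM, below Mg4 in every library, while Adam8 was at 158 to 324 CPM, above it. Of 14 proteases and their inhibitors, a list without Adam8, 2 were higher (Cstb and Mmp12) and none lower, with a median of 0.26 against -0.09 over all genes.

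Lilr4b, an immunoglobulin-like receptor with a close paralog, was at 344, 375 and 341 CPM against 33.9, 26.4 and 38.9 CPM (mean log2 ratio 3.25 ± 0.32). Lgals3, galectin-3, was at 882, 910 and 1115 CPM against 111, 132 and 183 CPM (2.75 ± 0.18). Spp1 itself had a ratio of 2.83 ± 0.41. Lgals3 was higher still in monocyte-derived cells, at 4052 to 5798 CPM.

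Of 14 genes of lipid handling, 8 were higher and none lower (Apoc1, Apoe, Cd36, Hilpda, Lpl, Msr1, Nceh1 and Plin2), with a median log2 ratio of 1.10. Plin2 was at 580, 449 and 721 CPM against 132, 85.6 and 197 CPM (2.09 ± 0.24). The scavenger receptor Msr1 was at 611, 498 and 914 CPM against 157, 168 and 228 CPM (1.82 ± 0.24). Nceh1, a cholesterol ester hydrolase, had a ratio of 1.86 ± 0.55 and the fatty acid binding protein Fabp5 one of 2.72 ± 0.65. Monocyte-derived cells, pooled over all brain libraries, held more Fabp5 (1148 CPM), Plin2 (918) and Nceh1 (213) and less Msr1 (548). The Mg4 means at young day 2 were 238, 584, 121 and 674 CPM.

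Of 14 genes of iron, haem and antioxidant defence, 4 were higher (Fth1, Ftl1, Hmox1 and Mt2), with a median of 0.67. Hmox1, which degrades haem, was at 190, 207 and 191 CPM against 27.4, 37.4 and 67.4 CPM (2.11 ± 0.60). The metallothionein Mt2 had a ratio of 1.85 ± 0.08. Growth and signalling genes also named by the rule were Igf1 (2.25 ± 0.47), Cd5l, a secreted macrophage protein (2.66 ± 1.09), the serotonin receptor Htr2b (1.98 ± 0.41) and the proteoglycan Sdc4 (1.85 ± 0.73). Border-associated macrophages, pooled over all brain libraries, held more Igf1 (238 CPM), Cd5l (164), Sdc4 (774), Mt2 (290) and Hmox1 (272). The Mg4 means of these 3 young libraries were 73.6, 83.8, 191, 171 and 196 CPM. Htr2b went the other way, at 0.275 against 52.7 CPM in Mg4.

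Of the 18 disease-associated microglial genes, 5 were higher (Apoe, Ctsb, Fabp5, Igf1 and Lpl; median 0.71). Of 15 homeostatic genes, 5 were lower (P2ry12, P2ry13, Sall1, Selplg and Siglech; median -0.80). Among 14 genes of motility, annexins and galectins, 5 were higher (Anxa2, Anxa5, Lgals1, Lgals3 and Vim; median 0.56). Of 8 osteopontin receptor genes, Itgb3 was lower and none was higher. No member of the interferon, glycolysis, MHC class I, MHC class II or early response lists passed in either direction.

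The lower side was led by mitosis genes. All 16 members of that list were lower, with a median of -2.73. Top2a, a topoisomerase of dividing cells, was at 97.4, 30.1 and 32.5 CPM in Mg4 against 585, 489 and 434 CPM (-3.30 ± 0.68). The 10 genes with the largest drop were Hmmr (-4.40), Nusap1 (-3.80), Prc1 (-3.73), Ckap2l (-3.67), H2afx (-3.32), Top2a, Kif11 (-3.13), Kif20a (-3.13), Aurkb (-3.12) and Ube2c (-3.10).

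That drop depended on the subtype used for comparison. Against Mg5 alone all 16 mitosis genes were lower in Mg4, where 0.905% of all genes were higher and 2.99% lower. None of the 15 homeostatic genes passed against Mg5 (median -0.56, all genes -0.07), while 7 of the lipid genes and 5 of the disease-associated genes were higher. Against Mg1 alone, where 9.1% were higher and 6.05% lower, 9 of the 16 were higher, none was lower, and 9 of the 10 named genes turned positive, Top2a to 2.77. H2afx stayed below 0, at -0.26. Of 14 DNA replication genes, 4 were lower against all other microglia (median -0.65), whereas 9 were higher against Mg1 (median 1.48). Of 14 interferon response genes 8 were higher against Mg1 (median 1.43). Glycolysis had 7 of 15 genes higher and 2 lower there (median 1.11). Early response had 4 of 16 higher, MHC class I 1 of 9 higher and MHC class II 2 of 7 lower. Cxcl10 was lower than in all other microglia and higher than in Mg1. Of the homeostatic genes 12 were lower (median -1.67), and 10 of the disease-associated, 11 of the cytokine and chemokine and 9 of the lipid genes were higher, beside a median of 0.16 over all genes. Lysosome genes had a median of -0.02 there and complement and Fc receptor genes one of -0.25. Against Mg3, 12 of the 14 interferon response genes were lower in Mg4 (median -2.46, all genes 0.33), where 11.5% of all genes were higher and 2.35% lower. Of the 18 disease-associated genes 1, Fabp5, was higher than in Mg3 (median 0.10), of the lipid genes 5 were higher and 1 lower (median 0.55), and of the homeostatic genes 3 were lower (median -0.65). Glycolysis had 4 of 15 genes higher than in Mg3, early response 1 of 16 lower and MHC class I 2 of 9 lower. Among the named genes, Igf1 (0.41) and Nceh1 (0.48) had ratios to Mg3 near the median of all genes, while those of Mmp12 (3.89), Lilr4b (3.68), Cd5l (3.55) and Htr2b (3.50) were higher.

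**Figure D4:**
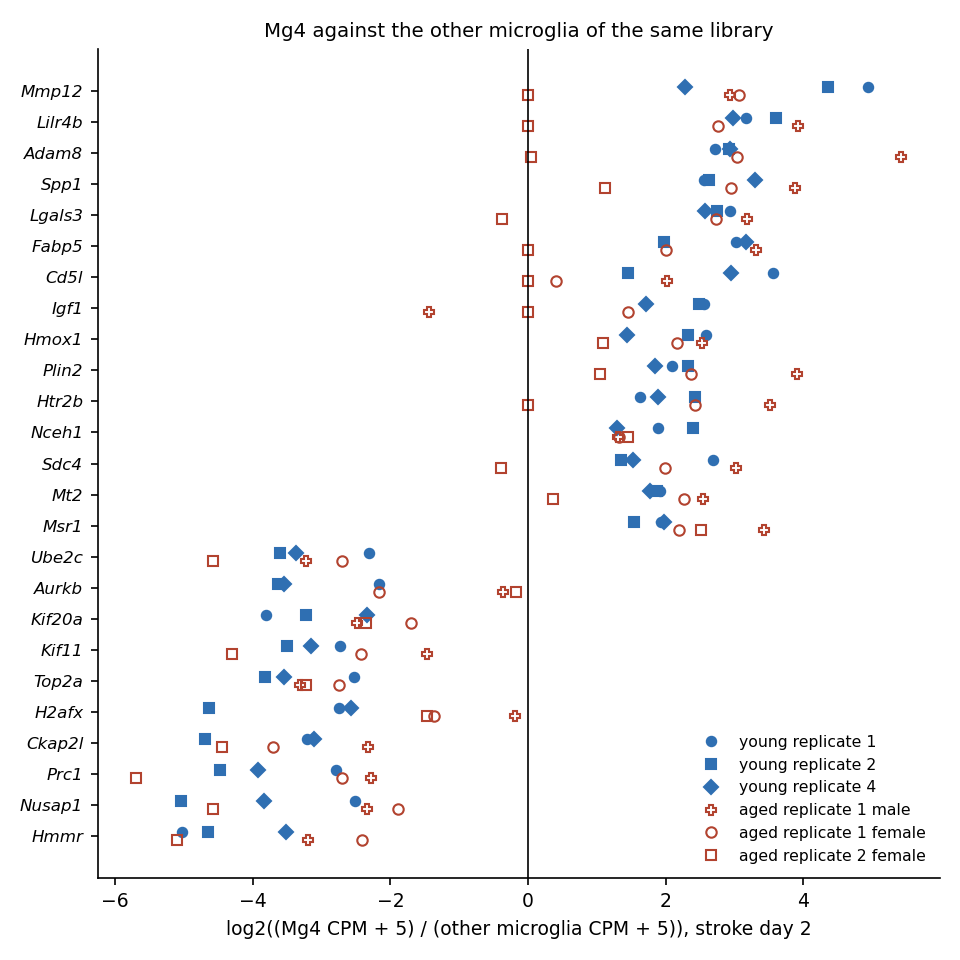
The 25 genes named by the rule: each point is 1 library's log2 ratio of Mg4 to the other microglia at stroke day 2, with 5 CPM added to both levels. Blue filled points are young replicates 1, 2 and 4, red open points the aged libraries; several points of the second aged female library lie at 0 for the higher genes, and all young points of a gene share 1 side of 0.

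The aged libraries gave 234 higher (1.28%) and 1124 lower (6.17%) of 18211 genes by the same rule. Among the 15456 genes measured at both ages, 119 were higher in young and 233 in aged brains, and 34 of them were shared, 28.6% of the young and 14.6% of the aged genes. Of the lower genes 197 were shared, 44.0% and 17.5%. Among the 3377 genes at 50 CPM or more in Mg4 or in the other microglia at both ages, 57 were higher in young and 59 in aged brains, and 25 were shared, 43.9% and 42.4%. No young higher gene was lower in aged brains, and 3 young lower genes were higher there. The deposited gene sets and the sexes also differed between the ages, so these overlaps cannot be tied to age alone.

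The named genes that passed in both ages are given with the aged mean log2 ratio and its SD over 3 libraries. They were Adam8 (2.83 ± 2.70), Msr1 (2.71 ± 0.64), Spp1 (2.65 ± 1.41), Plin2 (2.44 ± 1.43), Hmox1 (1.93 ± 0.75), Mt2 (1.73 ± 1.19) and Nceh1 (1.36 ± 0.08). Igf1 had an aged mean of 0.0017 and Lgals3 one of 1.85 with a negative value in 1 library. That library is the second female one. Its 20 Mg4 cells held Lgals3 at 85.2 CPM and no counts of Lilr4b or Mmp12, while the other aged libraries held Lgals3 at 2104 and 1414 CPM. Of 15 homeostatic genes 9 were lower in aged Mg4 (median -1.50, all genes -0.15), and 5 of 13 measured lipid genes were higher (Abca1, Lpl, Msr1, Nceh1 and Plin2). Of the 18 disease-associated genes 1 was higher (Lpl) and 1 lower (Axl), with a median of 0.13. Of the 14 motility genes 1 was higher (Lgals1; median 0.68).

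The few Mg4 cells of young sham brains were set against the other microglia of their 3 libraries in the same way. Of 15526 genes 186 were higher (1.2%) and 2344 lower (15.1%), with a median of -0.38 over all genes, and the smallest Mg4 sum held 8038 counts. Of 13 measured lipid genes 4 were higher (Apoe, Msr1, Nceh1 and Plin2). Of 15 measured cytokine and chemokine genes 4 were higher (Ccl12, Cxcl10, Cxcl16 and Tnf), while at day 2 Ccl5, Ccl7 and Il1rn were higher and Cxcl10 was lower. Of 15 homeostatic genes 2 were lower (P2ry12 and P2ry13). No mitosis gene passed in either direction, and Mmp12 and Adam8 had no counts in any of the 3 libraries.

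Mg4 cells of stroke day 2 were then compared with Mg4 cells of sham, which asks whether cells of 1 annotation differ between surgeries. In this and every later comparison within Mg4, genes that drew the border of the cluster are held alike by construction. Counts were summed per library and tested with edgeR's quasi-likelihood test and Benjamini-Hochberg adjustment over all genes tested, 4 stroke libraries against 3 sham libraries. Of 758 genes, 21 were higher (2.77%) and 28 lower (3.69%), and 209 had an unadjusted p under 0.05. The groups did not overlap for any of these 49 genes, nor for 233 of all 758 genes tested (30.7%, these 49 included). The sham sums held only 8038 to 39764 counts, so 1 sham library carried much weight. The count fell to 5, 1 and 4 without sham replicates 1, 2 and 4, to 16 and 11 without stroke replicates 1 and 4, and rose to 83 without stroke replicate 3, with 38 genes shared.

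Spp1 rose by a fitted 9.44 ± 0.91 (SE) on the log2 scale (edgeR adjusted p = 0.00181), from the levels given above. Each SE of an edgeR log2 change was derived as its size divided by the square root of the test's F value. It is thus an approximate SE and not one reported by the fit. Since the sham libraries held 2 whole counts together, the ratio of pooled counts was 1214 with a counting interval of 336 to 10020. Spp1 was called in each of 16 alternatives, with adjusted p between 2.08e-17 and 0.0293, and was the only gene called without sham replicate 2. Without stroke replicate 3 its log2 change was 9.95. Spp1 also rose in the other microglia (10.08, edgeR adjusted p = 1.64e-06). The difference between the changes, Mg4 minus the rest, was 0.47 (edgeR adjusted p = 0.97) in a joint fit of both sums. The separate fits, each scaled on its own, gave the larger change in the other microglia, so the sign of the difference is not settled.

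Lgals3 was at 25.6, 11.03 and 0 CPM in sham and at 882, 910, 2035 and 1115 CPM at day 2, a log2 change of 6.26 ± 0.78 (edgeR adjusted p = 0.00512). The pooled ratio rests on 1 sham count and was 78.2, with an interval of 14.0 to 3090. Lgals1, galectin-1, was at 9.60, 24.5 and 47.4 CPM in sham and at 782, 569, 1353 and 681 CPM at day 2 (5.75 ± 0.71). Without stroke replicate 3 the log2 changes were 6.23 for Lgals3 and 5.73 for Lgals1. Lgals1 too rests on 1 pooled sham count. Both were called in 15 of 16 alternatives, the exception being the one without sham replicate 2. Spp1, Lgals1 and Lgals3 were the 3 genes still called when cells with more genes than counts were left out, which also took sham replicate 4 and stroke replicate 3 below the minimum of 20 Mg4 cells and out of the fit.

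Other genes were called in fewer alternatives. Msr1 was at 38.1, 77.6 and 61.7 CPM in sham and at 611, 498, 689 and 914 CPM at day 2 (log2 change 3.57 ± 0.50, edgeR adjusted p = 0.00744, called in 12 of 16). Plin2 was at 153, 60.1 and 220 CPM in sham and at 580, 449, 1002 and 721 CPM at day 2 (2.38 ± 0.50). Tspo, a mitochondrial protein used as an imaging target for microglia, rose by 2.52 ± 0.53, and the actin-capping Capg by 3.38 ± 0.79. Ifitm3 (5.32), Fxyd5 (4.27) and Lilr4b (3.62) also rose, each from at most 2 whole sham counts. Pooled ratios were 29.7 for Ifitm3 (5.32 to 1176), 19.6 for Fxyd5 (3.50 to 775) and 12.9 for Lilr4b (3.54 to 107). Capg, with 3 sham counts, had a ratio of 10.3 (3.51 to 50.2). In replicate 3 Ifitm3, Capg and Tspo were higher than in any other young day 2 library. Without it the log2 changes were 5.00 for Ifitm3, 4.37 for Fxyd5, 3.796 for Lilr4b, 3.79 for Msr1, 3.25 for Capg, 2.50 for Plin2 and 2.49 for Tspo, each still called.

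Markers of monocyte-derived cells moved in the same comparison. The 10 of them summed to 0 to 23.3 CPM in the sham Mg4 cells, with 0 to 5 above 0, and to 562, 292, 1162 and 33.3 CPM in stroke replicates 1 to 4, with 10, 6, 10 and 1 above 0. Monocyte-derived cells of young day 2 held Lgals3 at 4052 to 5798 CPM and Lilr4b at 800 to 1007 CPM. In stroke replicate 4, where 9 of the 10 markers were at 0, Mg4 held Lgals3 at 1115 CPM and Lilr4b at 341 CPM. Replicate 1, with all 10 above 0, held them at 882 and 344 CPM. How these markers bear on the Mg4 levels was not tested. Border-associated macrophage markers summed to 33.6 to 127 CPM in sham Mg4 and to 13.6 to 293 CPM in day 2 Mg4, which overlap. At day 2 they were at 14.4 to 65.9 CPM in the other microglia and at 9771 to 16280 CPM in border-associated macrophages. Granulocyte markers ranged from 91.4 to 750 CPM in sham and from 15.4 to 118 CPM at day 2, which overlap. The 8 dendritic markers summed to 1577 to 1952 CPM in sham and to 188 to 839 CPM at day 2, with no overlap. Siglech, which is also in the homeostatic microglial list, made up 1563 to 1886 CPM and 186 to 833 CPM of these sums.

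On the lower side, Entpd1, the ectonucleotidase CD39, was at 610, 526.2 and 418 CPM in sham and at 107, 102, 27.5 and 99.4 CPM at day 2 (-2.51 ± 0.33, edgeR adjusted p = 0.00555, called in 13 of 16). Crybb1, a crystallin gene expressed by microglia, fell by 2.68 ± 0.50 on the log2 scale. Hpgd, which degrades prostaglandins, fell by 2.15 ± 0.35, Selenop by 2.09 ± 0.39 and the transcription factor Mef2a by 1.93 ± 0.28. The cytokine receptor genes Il6ra (-2.27) and Ifngr1 (-2.08), the cytoskeletal linker Macf1 (-2.28), the ubiquitin ligase gene Mycbp2 (-2.42) and Ivns1abp (-2.27) fell as well. Without stroke replicate 3 these 10 genes had smaller changes, from -2.37 for Crybb1 to -1.63 for Selenop, and each was still called. Entpd1 was then at -2.22. P2ry12 had a value of -2.03 and did not pass (edgeR adjusted p = 0.105). Without replicate 3 it was -1.51 and passed (0.0256).

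**Figure D5:**
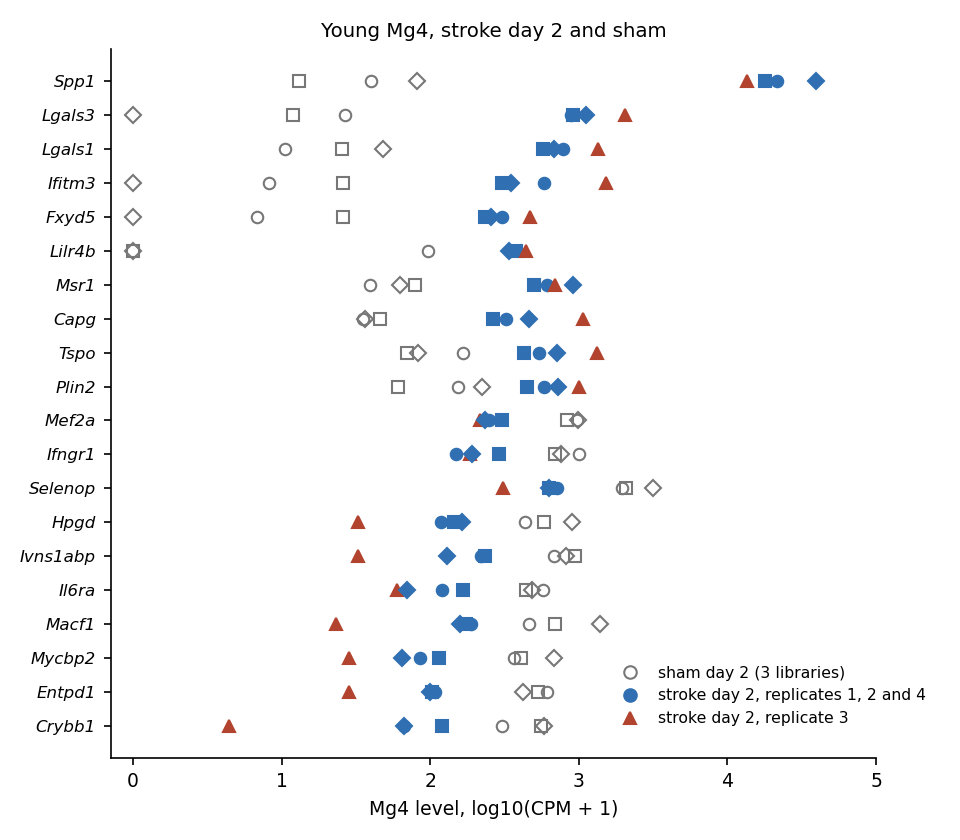
Level of the 20 genes named for the day 2 against sham comparison in the Mg4 cells of each young library, as log10(CPM + 1). Open grey points are 3 sham libraries, blue points stroke day 2 replicates 1, 2 and 4, red triangles replicate 3; sham and stroke points do not overlap for any gene, which the rule for naming them required, and Spp1 was highest at day 2.

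By list, the members that passed the filter on low counts can have done so through the day 2 group alone, so their counts describe those members and not the lists. They stand beside the 2.77% higher and 3.69% lower of all genes tested. Of 14 motility genes 5 were tested and 4 rose (Anxa5, Capg, Lgals1 and Lgals3). Of 14 lipid genes 5 were tested and Msr1 and Plin2 rose, and of 14 iron genes 5 were tested and Ftl1 and Prdx1 rose. Of 14 interferon response genes 2 were tested, and both, Bst2 and Ifitm3, had values above 0 and were called. Of 15 homeostatic genes 13 were tested and Selplg fell. Of 18 disease-associated genes 10 were tested, and Cd63 and Ctsb rose. Without stroke replicate 3, where 2462 genes could be tested, 1.75% of them higher and 1.62% lower, the same 4 motility, 2 lipid and 2 interferon genes were called. Ftl1, Mt2 and Prdx1 were then called in the iron list, Cd63, Ctsb, Ctsd and Fabp5 in the disease-associated list, and Mef2c, P2ry12 and Selplg were lower in the homeostatic list. Without replicate 3, Ccl12 of 8 tested cytokine genes was also called higher, as were Cstb and Ctsl of 5 tested proteases and inhibitors. With replicate 3 in the fit, none of 10 tested complement and Fc receptor genes, 5 cytokine genes or 4 MHC class I genes passed. Mitosis genes were too low to be tested.

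Where Mg4 changed unlike the other microglia was tested as the difference between the changes from sham to day 2, in replicates 1, 2 and 4 of both groups, with library as a block. The other microglia changed their mix between these groups. In young sham Mg1 was 53.0% and Mg2 37.85% of microglia, and at day 2 without replicate 3 Mg5 was 34.6% and Mg1 14.7%. A shift in this mix cannot be told apart from a change within cells. Of 8510 genes, 51 were called with a difference (Mg4 minus the rest) above 0 (0.599%) and 6 with one below 0 (0.0705%). An unadjusted p under 0.05 was found for 868. A difference above 0 can be a larger rise or a smaller fall in Mg4. Which genes were called depended on scaling, on the tool and on the cells taken as the rest. The median over all genes was 0.38 with TMM normalization and -0.12 with library size alone, where 7 genes were above and 60 below, with 13 calls shared. DESeq2 called 57 genes, 12 of them shared, and Mg1 alone as the rest gave 66, 18 of them shared. All 57 genes kept their sign with library size alone, and 53 of them kept it in each alternative that gave a value.

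Ctsd, a cathepsin that digests protein in lysosomes, was called under both scalings. It went from 5899, 3959 and 3383 CPM in sham Mg4 to 10570, 9652 and 12060 CPM at day 2, and in the other microglia from 6498, 4657 and 3851 to 6040, 6708 and 8254 CPM. The difference was 1.35 ± 0.23 on the log2 scale (edgeR adjusted p = 1.76e-05). Ctsd, the ferritin subunit Ftl1 (1.19 ± 0.22) and the endoplasmic reticulum chaperone Hspa5 (1.32 ± 0.24) were called in each of 13 alternatives. Ctsl (1.37), Lgmn (1.12) and Ctsb (1.08) were called in 12, all but the one without stroke replicate 4. Of 12 tested lysosome genes 6 were called higher (Cd68, Ctsb, Ctsd, Hexa, Lamp1 and Lgmn; median 1.00), and 6 were not, among them the cathepsin genes Ctsa and Ctss. Of the 6 called, Ctsd alone kept its call without stroke replicate 4. Cd68, Hexa and Lamp1 were called in 7 of 13 alternatives, and lost the call with library size alone, with DESeq2 and without sham replicate 1 or 4 as well.

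Of 14 tested cytokine and chemokine genes 2 were called with a difference below 0. Cxcl10, an interferon-induced chemokine, was at 188, 21.7 and 12.7 CPM in sham Mg4 and at 64.4, 38.8 and 204 CPM at day 2, while the other microglia went from 9.96, 20.0 and 3.24 to 118, 170 and 460 CPM (difference -3.27 ± 0.85). It lost its call without sham replicate 1 or without stroke replicate 4, and its difference ran from -4.69 to -1.18 over 12 alternatives. Ccl12 was at 616, 1046 and 429 CPM in sham Mg4 and at 2526, 1734 and 4168 CPM at day 2, against 170, 209 and 127 and then 1689, 2006 and 3999 CPM in the other microglia (-1.50 ± 0.31). At day 2 the Ccl12 levels of Mg4 and of the other microglia overlapped. The Ccl12 difference was 0.70 with Mg1 alone as the rest, and it had no call there. The cell cycle gene Cks2 differed by -4.86 ± 1.22. The remaining differences below 0, outside the rule for named genes and looked up after their values were seen, were those of Lpl (-3.04), Cybb (-4.10) and Gpr84 (-1.47). In sham Mg4, Lpl (1011 CPM) and Cybb (414 CPM) were found in replicate 1 and stood at 0 in the other 2 libraries, and both lost their call and changed sign without replicate 1, to 7.71 for Lpl and 1.49 for Cybb. Lpl also had no call with DESeq2, Cybb none with values rounded up, and neither had one with Mg1 alone as the rest.

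Between ages, 0 genes of 3047 passed in either direction at day 2 (0.0% higher, 0.0% lower) by edgeR's quasi-likelihood test with Benjamini-Hochberg adjustment, 3 aged libraries against 4 young. There were 303 genes with an unadjusted p under 0.05, and DESeq2 also called 0. Spp1 differed by 0.07 ± 0.76 (SE) on the log2 scale (edgeR adjusted p = 0.994), and by -0.18 without young replicate 3. No list had a called member. Without young replicate 3, 2 genes passed, and without the second aged female library 3 did. A count of 0 here does not show that the ages are alike. The deposited data listed 19704 genes for each young brain library and 27514 genes for each aged one. The young mice were all male, and the aged libraries were of both sexes. Age therefore cannot be told apart from the deposited gene set, nor fully from sex. With sex as a covariate 0 genes passed as well.

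Few of the genes that could be tested were called between day 14 and day 2 Mg4 cells. Cells of both days were placed in Mg4 by their genes, and the day 14 sums held only 6024 to 13611 counts. A low count of calls therefore does not show that the days are alike. With at least 5 Mg4 cells per library, 482 genes could be tested with edgeR in 4 libraries against 4. H2-D1 and Apoe passed in the higher direction (0.415%) and none in the lower (0.0%), and 40 had an unadjusted p under 0.05. H2-D1, an MHC class I gene with close family members, was at 3479, 3354, 4464 and 3101 CPM at day 14 and at 972, 841, 1561 and 813 CPM at day 2 (log2 change 1.86 ± 0.29, edgeR adjusted p = 0.0143).

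Apoe, a lipid transport protein, was at 37550, 34170, 30510 and 10450 CPM at day 14 and at 4244, 1989, 6687 and 1180 CPM at day 2 (3.08 ± 0.58, edgeR adjusted p = 0.0384). The ranges did not overlap for either gene. Apoe was outside the rule for named genes and was chosen after its values were seen. The other microglia showed higher Apoe at day 14 too, at 35700 to 72690 CPM against 543 to 1677 CPM in replicates 1, 2 and 4 of day 2. Spp1 had a value of -0.78 ± 0.70 (edgeR adjusted p = 0.838). It ran from -2.51 to -0.351 over 16 alternatives and was called in 0 of them. Without day 2 replicate 3 the log2 changes were 2.09 for H2-D1, 3.56 for Apoe and -0.95 for Spp1, the first 2 still called. H2-D1 kept its call in 11 of 16 alternatives and Apoe in 8. The number of calls ran from 0 to 7 when 1 library was left out, with none left once day 2 replicate 2, day 2 replicate 4 or day 14 replicate 3 was dropped, and 7 once day 2 replicate 3 was.

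Across the 11 libraries with at least 20 Mg4 cells, the genes whose log2 levels followed Spp1 most closely among 3436 were Lgals1 (Pearson r 0.944), Lgals3 (0.938), Ctsb (0.936), Cd63 (0.924) and Rab7b (0.914). Capg, Adam8, Rheb, Mrpl36 and Tmem106a came next, from 0.910 to 0.884. Without young stroke day 2 replicate 3, in 10 libraries, the values of these 10 genes ran from 0.885 for Tmem106a to 0.967 for Capg, with Lgals1 at 0.964 and Lgals3 at 0.946. These libraries share their grouping into sham and stroke, and how much of the correlation comes from that grouping was not tested.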

How the data were processed

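Brain cells were profiled by Drop-seq in 18 libraries, and the 11 blood libraries were used only to count cells. Per the labels' protocols, 4 to 5 hemispheres were pooled per library. The submitters' processing notes name mm10 and Seurat, and the aligner, counter and cell filters are not given in the sources used here. The deposited gene tables hold estimated counts per cell that are mostly not whole, and the step that made them so is not given in the sources used here. The deposited cell tables give, per the file headers, the counts per cell, the count of genes detected, the percent of mitochondrial counts and the authors' cell annotation, which was used as deposited.

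Counts were summed per library over Mg4 cells and over other microglia, with levels as CPM of the unrounded sums. Sums were rounded for edgeR 4.0.16 (TMM, filterByExpr, glmQLFit and glmQLFTest, Benjamini-Hochberg adjustment at 0.05), with at least 20 Mg4 cells per library, and DESeq2 1.42.0 was an alternative. Mg4 sums in the tests held 6024 to 1010415 counts. The comparison of day 14 with day 2 (at least 5 cells) and the difference in the change were added after the data were seen, because only 1 day 14 library reached 20 cells. Ratios within a library used 5 CPM added to both levels. Named genes were Spp1, the 15 highest and 10 lowest ratios at a mean of at least 50 CPM, and up to 10 called genes in each direction at a mean of at least 20 CPM without overlap. Predicted, ribosomal and mitochondrial genes, and genes held by another type of at least 500 cells at over 10 times the Mg4 level, were not named. The members, lists and rules were chosen with earlier results of these data known. The edgeR step was tested on simulated data. Deviations from the group means of same-numbered libraries of day 2 and day 14 had correlations of 0.2, 0.495, 0.438 and 0.351. Pairs of unlike number ran from -0.404 to 0.384, and day 2 replicate 1 was closer to day 14 replicate 2 (0.384) than to replicate 1. The replicate block kept both calls there, and the labels do not say what a number shares. Scrublet's own threshold marked under 0.5% of cells, so leaving out the top 5% of doublet scores in each library was tried. At young day 2 these top scores took in 17 of 247, 15 of 235, 0 of 56 and 36 of 496 Mg4 cells in replicates 1 to 4. Of the other microglia they took in 5 of 371, 5 of 458, 1 of 2 and 18 of 828. In aged day 2 libraries (male, females 1 and 2) it was 9 of 136, 6 of 447 and 1 of 20 Mg4 cells. The other microglia there gave 4 of 190, 10 of 509 and 6 of 150. What the scores mean for the Mg4 genes was not tested. Alternatives are given at the end. The reference promoters came from RefSeq.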

Additional observations from a re-analysis of the deposited data

Results flagged for a closer look

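Among 40 quantities, each compared over the libraries of a single young group, 6 held a library far from the others. Many of the 40 share the same libraries and are not independent, so they cannot be set against a chance rate of about 1 in 20. Of these 6, 4 were values of young stroke day 2 replicate 3. Its Mg4 share of microglia was 96.55%, against 33.91 to 39.97% in the other 3. The share of its Mg4 cells with more genes than counts was 94.64%, against 8.27 to 18.62%. Its microglial markers summed to 886 CPM, and its Entpd1 level was 27.5 CPM, against 99.4 to 107 CPM. Spp1 in the Mg4 cells of young stroke day 14 replicate 3 was 36330 CPM, against 2700 to 8078 CPM. In young sham replicate 4, microglia made up 81.54% of all cells, against 68.67 to 69.86%.

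Mg4 and the other microglia differed in the change from sham to stroke day 2 for 57 genes by edgeR's interaction test. The subtype mix of the other microglia also differed between these groups. Differences on the log2 scale, Mg4 minus the rest, were 3.19 for Sertad1, 2.73 for Tbxas1, 2.70 for Lpgat1, 2.63 for Pmepa1, 2.55 for Snx4, 2.52 for Btg1, 2.09 for Lrp1 and 1.98 for Pld3. They were -4.86 for Cks2, -3.27 for Cxcl10 and -1.50 for Ccl12. Tent5c and Stat6 both had 8.80, a fitted value that depends on the prior count, since 2 of 3 sham Mg4 sums held none of their counts. All 10 higher genes lost their call with DESeq2 and with library size without TMM. Of 13 alternatives, Lrp1 was called in 10, Pmepa1 in 8, Pld3 and Snx4 in 7, Lpgat1 in 6, Btg1 in 5, Tbxas1 in 3, and Tent5c and Stat6 in 2, and Sertad1 was called in 8 of 12.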

How the results depend on the processing

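Small sums limit these results: sham Mg4 held 21 to 65 cells in a library and day 14 Mg4 8 to 20, many values are fractions of a count, and no cause of a changed value was tested unless fewer samples explain it. For day 2 against sham (49 genes), DESeq2 called 91, no filter on low counts 121, values rounded up 123, at least 10 cells 30, cells with more genes than counts left out 3 (sham replicate 4 and stroke replicate 3 then fell under 20 cells and left the fit), and leaving out 1 library 1 to 83. The replicate block called 73, 43 of them shared. Deviations of same-numbered sham and stroke libraries had correlations of 0.002, -0.128 and 0.174, and pairs of unlike number ran from -0.388 to 0.328. With so few pairs and small sham sums, these values cannot decide whether the numbers pair the libraries. For age (0 genes), no filter gave 94, top doublet scores left out 2, rounding up 4, at least 50 cells 1, and leaving out 1 library 0 to 3. For day 14 against day 2 (2 genes), DESeq2 gave 13, no filter 62, library size without TMM 1, at least 10 cells 0, and leaving out 1 library 0 to 7. For the difference in change (57 genes), DESeq2 gave 57, 12 of them shared, and Mg1 alone as the rest 66, 18 of them shared. Leaving out cells with more genes than counts gave 107 (sham replicate 4 left the fit too) and leaving out 1 library 16 to 84.

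Within young libraries, genes higher and lower (119 and 449) became 1438 and 956 with Mg1 alone as the rest, 277 and 1086 with a pseudocount of 1 CPM, 47 and 127 with 20 CPM, and 64 and 148 at a mean of at least 50 CPM. Leaving out 1 library gave 139 to 278 and 528 to 832. In aged libraries (234 and 1124) the same settings gave 1250 and 544, 353 and 1798, 66 and 254, and 104 and 299. Leaving out top doublet scores gave 407 and 650 and leaving out cells with more genes than counts 419 and 636, both without the second female library, which fell under 20 cells, and leaving out 1 library 407 to 640 and 632 to 2237. With all cells as the denominator the Mg4 share was 6.67% in young day 2, 10.3% in aged day 2 and 0.438% in young day 14. Leaving out 1 library moved the mean share of microglia to between 37.1 and 58.0% at young day 2 and between 26.7 and 44.2% at aged day 2.

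With Mg1 alone as the rest these ratios changed sign: Hmmr 0.23, Nusap1 1.14, Prc1 1.10, Ckap2l 0.65, Top2a 2.77, Kif11 1.25, Kif20a 0.40, Aurkb 0.85, Ube2c 1.55, and the difference in change of Ccl12, 0.70. Spp1 kept its direction in each alternative for day 2 against sham (8.86 to 10.77). Of 310 alternative values of the 20 genes named there, 216 kept direction and call and 94 kept direction only. Requiring 50 Mg4 cells left 1 sham library and was not run for day 2 against sham; the tests planned for day 14 against sham and for the change from day 2 to day 14 were not run, with 1 day 14 library of 20 cells.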
